A study of Homo sapiens with 12 samples.

Results

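The genes described here encode the proteins of the cytoplasmic ribosome. They were chosen by symbol: RPL or RPS followed by a number with or without a final A or X, RPLP0, RPLP1, RPLP2, and RPSA. This gave 77 of the 17096 listed genes, 46 of the large and 31 of the small subunit. RNA came from H7, a line of human embryonic stem cells, during directed differentiation into cardiomyocytes, and was sequenced as 12 libraries in 6 groups of 2. The groups were wild type at days 3, 7 and 15 of differentiation and cells labelled E2A-/- (knockout) at the same days, all of the H7 line. Day 3 cells are labelled cardiac mesoderm cells, and those of days 7 and 15 cardiomyocytes. E2A is an older name of TCF3, a basic helix-loop-helix transcription factor. The labels name neither the edit nor the number of clones, and do not say whether replicates were separate cultures. A p-value here thus speaks only of the spread between libraries of the same group, and that spread may be technical. The fit pools it over all 6 groups, so a p-value within wild type also carries the spread of the labelled knockout.

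The values are FPKM, fragment counts scaled to transcript length and library size, a unit inferred from the values. TCF3 itself stood at 179.5 and 149 FPKM in wild type and 146 and 148 in the libraries labelled knockout at day 3, 135 and 138 against 179.9 and 172 at day 7, and 74.4 and 98.2 against 169.7 and 108 at day 15. Its mRNA was not called lower in the labelled knockout at any day, with log2 differences of -0.15 and 0.36 that did not pass at days 3 and 7. At day 15 it was higher by 0.66 (SE 0.19, adjusted p = 0.0234) in the limma fit described below, a call that ended without wild-type replicate 1 (0.46) or labelled knockout replicate 1 (0.34). An mRNA level does not show whether the protein was lost, so the groups are called by their label throughout and every direction rests on it. The summed FPKM of 6 cardiomyocyte markers (TNNT2, MYH6, MYH7, ACTN2, MYL7 and NKX2-5) averaged 6.72 against 4.88 at day 3, 6080 against 1079 at day 7 and 9350 against 3302 at day 15, wild type before labelled knockout. MYL7, an atrial myosin light chain, made most of the day 15 sum in wild type, at 5961 and 6584 against 1350.0 and 1204. At day 15, 4 of the 6 were called lower and MYH6 higher (632 and 702 against 959 and 786), while NKX2-5 did not pass (123 and 149 against 155 and 131). The 3 measured pluripotency markers summed to 1226 against 1255 at day 3, 169 against 355 at day 7 and 54.5 against 98.1 at day 15. Their day 3 sums hide single genes: SOX2 and DPPA4 were called higher in the labelled knockout, and the log2 differences of the 3 ran from -0.29 to 2.15. The 4 cycling markers summed to 152 against 193, 171 against 256 and 129 against 105 at days 3, 7 and 15. The day 15 sums hide opposite calls: 1 of the 4 was higher and 1 lower in the labelled knockout, with log2 differences from -0.58 to 0.47. The 4 measured primitive streak and mesoderm markers (MIXL1, EOMES, MESP1 and GSC) summed to 605 against 161 at day 3. The part of these marker differences in the results below was not tested. In bulk RNA, a lower level through fewer cells of a type and one through less RNA per cell cannot be told apart. Mitochondrially encoded transcripts took 8.34% to 26.1% of summed FPKM in the group means.

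A ribosome has a small subunit, which binds the mRNA and reads its codons, and a large subunit, which joins the amino acids. Most ribosomal proteins are needed in about equal number, and their mRNAs share a control element: most start with a C followed by a run of pyrimidines, the 5' terminal oligopyrimidine (TOP) tract, through which LARP1 and the mTORC1 kinase complex set their translation and stability. Stem cells that divide fast are rich in these mRNAs.

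The start regions are shown because this tract is what the members share in sequence. In the RefSeq promoter table (GRCh38.p14), 62 of the 77 members had an entry. The base at the annotated start was C in 49 of these 62 (79.0%) and in 18.0% of all 27305 genes in the table. An unbroken run of at least 8 bases of C and T covered the start in 45 of 62 (72.6%) against 5.94% of all genes. Of the lines below, RPLP0, RPSA and RPS27 are members with large falls in wild type. RPL38, RPL37A, RPL22, RPLP1, RPS26 and RPS28 are members that did not follow the rest, and EEF1B2 is the gene outside the family with the most similar profile. The lines are examples and do not represent these classes. RPL3 and RPL4, not shown, also had large falls, with runs of 5 and 0 bases covering the start. Each line runs 5' to 3' from 20 bases before the annotated start to 15 bases from it, and capitals mark the C and T run that covers the start. RPS26, with G at the start, and RPS28, with A, had no run covering the annotated start. In the RPS28 line a run of C and T begins just after that base, and in the RPS26 line it begins after a further A. This measure counts neither run. Their lines therefore do not show that the tract is absent.
RPLP0, chr12:120201097-120201131, minus strand: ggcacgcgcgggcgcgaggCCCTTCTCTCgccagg
RPSA, chr3:39406700-39406734, plus strand: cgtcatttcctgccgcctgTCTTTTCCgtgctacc
RPS27, chr1:153990742-153990776, plus strand: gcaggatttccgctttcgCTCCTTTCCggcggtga
RPL38, chr17:74203658-74203692, plus strand: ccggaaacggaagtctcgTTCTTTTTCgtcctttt
RPL37A, chr2:216498824-216498858, plus strand: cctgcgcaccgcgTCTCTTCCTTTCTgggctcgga
RPL22, chr1:6199581-6199615, minus strand: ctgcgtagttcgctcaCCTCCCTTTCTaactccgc
RPLP1, chr15:69452798-69452832, plus strand: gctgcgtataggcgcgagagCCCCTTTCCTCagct
RPS26, chr12:56041898-56041932, plus strand: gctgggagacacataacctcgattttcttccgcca
RPS28, chr19:8321476-8321510, plus strand: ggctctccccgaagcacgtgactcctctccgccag
EEF1B2, chr2:206159875-206159909, plus strand: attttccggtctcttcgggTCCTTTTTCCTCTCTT

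Summed over the 77 genes, ribosomal protein transcripts were lower at each later day in wild type, and at day 15 they were higher in the labelled knockout than in wild type. The wild-type libraries held 128864 and 124559 FPKM at day 3, then 94924 and 99613 at day 7, then 55471 and 57894 at day 15. Those labelled knockout held 100719 and 113226, then 82722 and 85913, then 86367 and 88389. At every day the 4 libraries separated by genotype, with wild type above at days 3 and 7 and below at day 15, a description that involves no test. The mean level per gene, averaged over the libraries of a group, was 1646 ± 39.5 (SD, n = 2) in wild type and 1389 ± 115 in the labelled knockout at day 3, 1263 ± 43.1 against 1095 ± 29.3 at day 7, and 736 ± 22.3 against 1135 ± 18.6 at day 15. The summed level in the labelled knockout was thus 0.844 times the wild-type level at day 3, 0.867 times at day 7 and 1.54 times at day 15. With 2 libraries against 2, no permutation test of one sum can pass 0.05, so these ratios carry no p.

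As a share of all FPKM, the members took 17.4% ± 0.239 in wild type and 16.2% ± 1.67 in the labelled knockout at day 3, 15.3% ± 0.383 against 13.5% ± 1.02 at day 7, and 8.19% ± 0.102 against 14.7% ± 0.788 at day 15. Mitochondrial transcripts moved beside these shares: their mean share was 16.3% against 18.1% at day 3, 8.34% against 19.4% at day 7, and 26.1% against 14.1% at day 15, wild type first. Taken as a share of nuclear genes alone, the members held 16.7% ± 0.366 in wild type and 16.7% ± 1.02 in the labelled knockout at day 7, a ratio of 1.00, and 0.955 at day 3. So the genotypes' shares of nuclear genes overlapped at days 3 and 7, as did their shares of all FPKM at day 3, while at day 15 the nuclear share was 11.1% ± 0.149 against 17.2% ± 0.983, a ratio of 1.55.

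**Figure D1:**
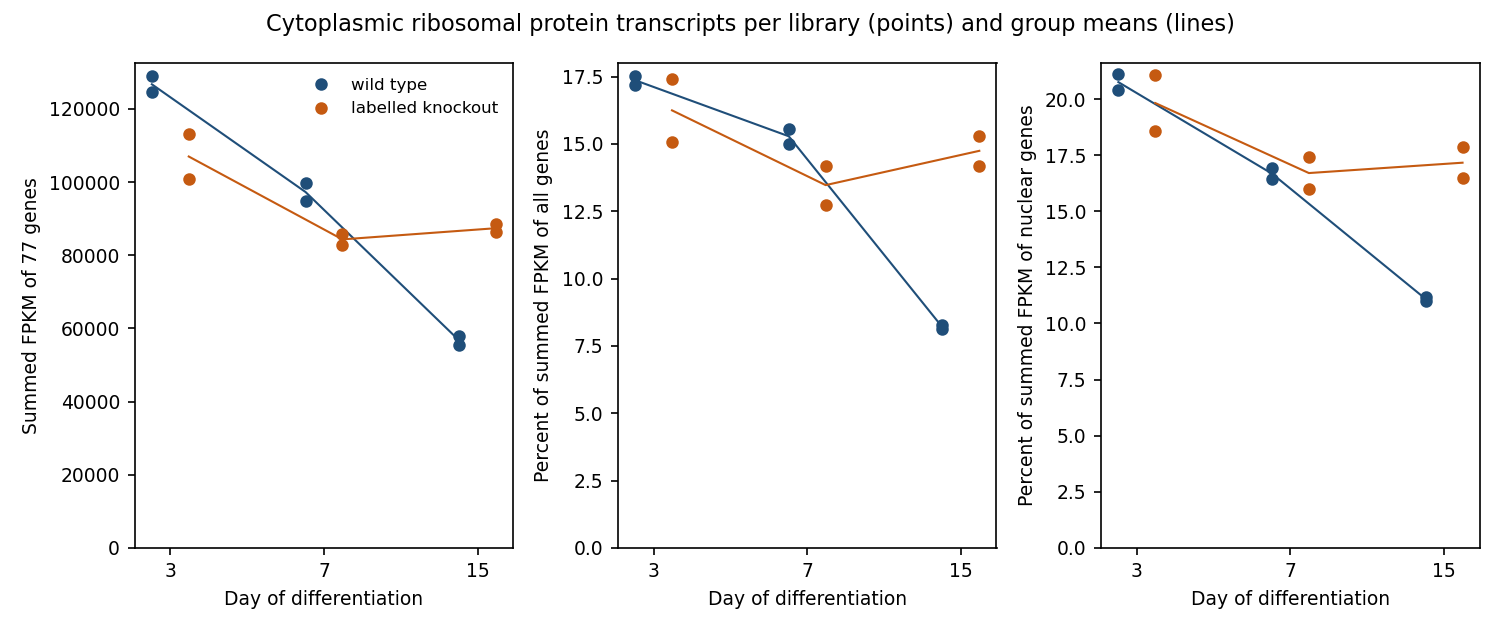
Summed FPKM of the 77 genes (left), their percent of all summed FPKM (middle) and of summed FPKM of nuclear genes (right) by day, drawn at equal spacing, with 1 point per library and lines through the means of 2 libraries. The wild-type sums end at 55471 and 57894 at day 15 while the labelled knockout ends at 86367 and 88389, and the right panel shows the genotypes overlapping at days 3 and 7.

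The balance of the subunits was described too. The mean small-subunit level over the mean large-subunit level was 1.13 ± 0.0120 in wild type and 1.05 ± 0.0467 in the labelled knockout at day 3, 1.08 ± 0.00203 against 1.04 ± 0.0229 at day 7, and 0.977 ± 0.0114 against 0.965 ± 0.0227 at day 15. Both genotypes ended with lower small-subunit ratios than they began with, and the libraries of day 3 did not overlap those of day 15 in either genotype. Among single genes, the mean level over all libraries spanned 23.1-fold. RPS23, at the decoding centre of the small subunit, was the highest member in 11 of 12 libraries, and RPS28, the lowest in all 12, stood between 80.2 and 215 FPKM.

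In wild type most members fell between day 3 and day 15. Changes were tested with limma on log2(FPKM + 1) over the 16295 genes that passed a filter on low values, with p adjusted by the method of Benjamini and Hochberg and 0.05 as the threshold, and all 77 members passed the filter. From day 3 to day 15, 67 members fell and 0 rose, beside 59.1% of all tested genes called (29.9% lower, 29.2% higher). The median change was -1.04 for the members and 0.02 for all tested genes. Both day 15 libraries lay below both day 3 libraries for 70 members and above for 4, against 40.3% and 41.1% of all genes. Scaled to the sum of nuclear genes, which moves the median of all genes to 0.23 and the share of higher among called genes from 49.4% to 62.1%, 58 members fell and 2 rose.

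The median change was larger after day 7 than before it, a contrast of intervals that share the day 7 libraries and was not tested. From day 3 to day 7, 35 members were lower and 0 higher (43.7% of all tested genes called, 22.6% lower, 21.1% higher), with a median of -0.35. With replicate 1 or 2 of day 3 left out this count was 15 or 23, and with replicate 1 or 2 of day 7 left out 14 or 19. From day 7 to day 15, 59 were lower and 1 higher (52.3% called, 26.8% lower, 25.5% higher), with a median of -0.78. RPL12, at the base of the stalk, was lower already at day 7, with 2324 and 2109.8 FPKM at day 3, then 1034 and 1069 at day 7, then 658 and 689 at day 15. Its fall of 1.07 (SE 0.10, adjusted p = 1.3e-05) before day 7 was the largest of the 77 over that interval.

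**Figure D2:**
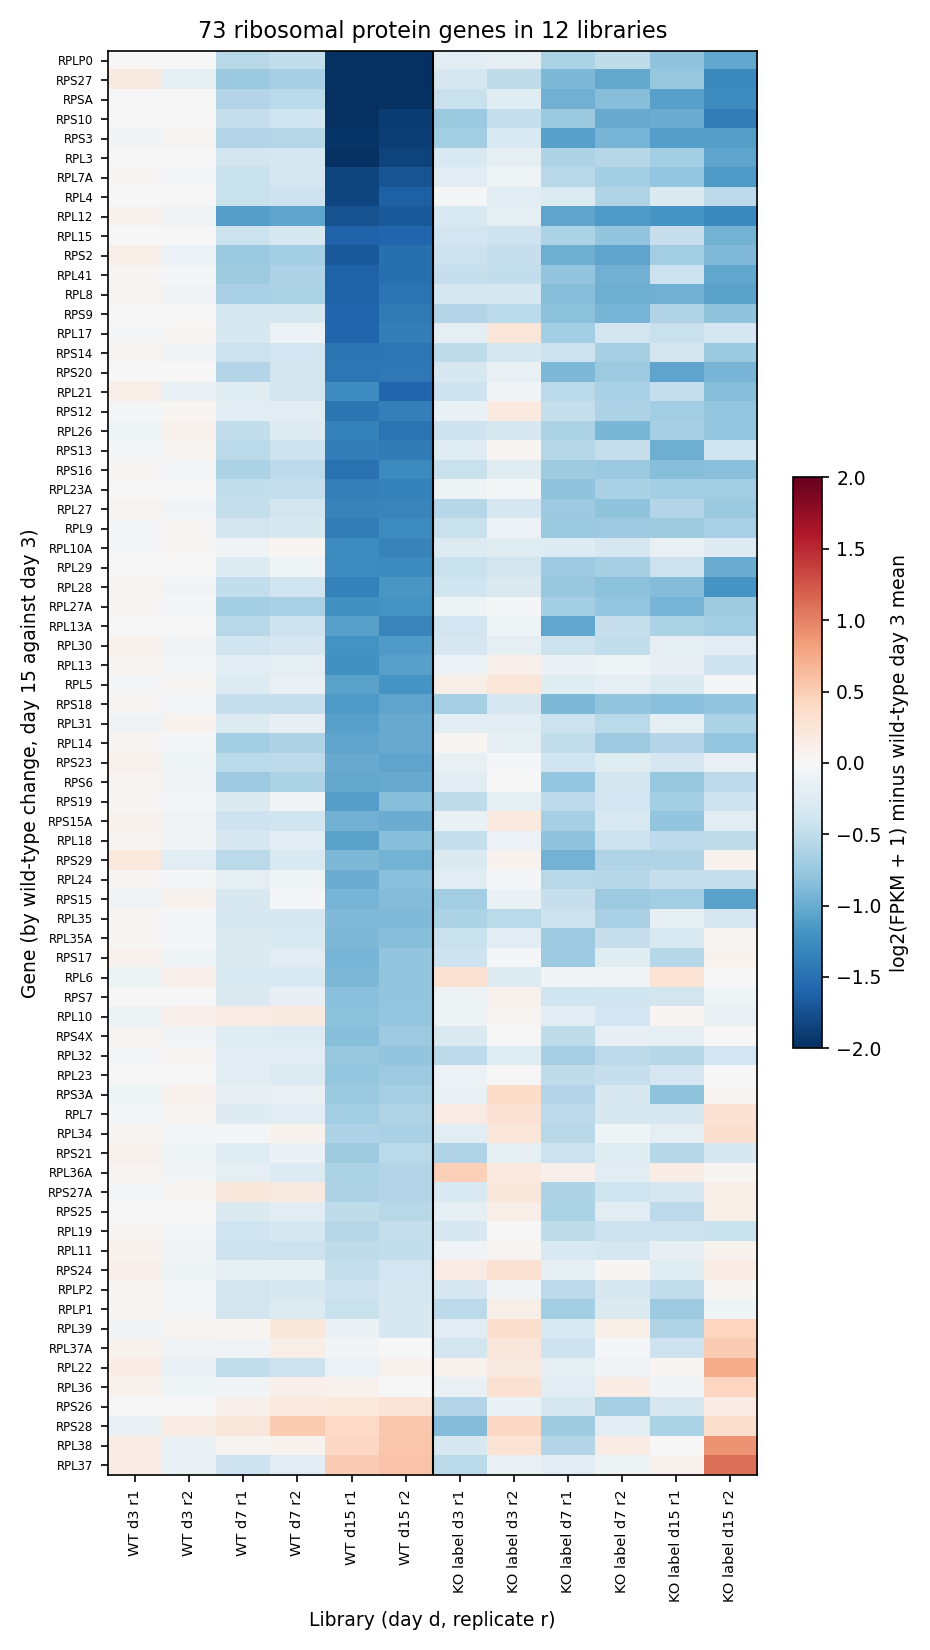
Log2(FPKM + 1) of 73 of the 77 genes in each of the 12 libraries minus its wild-type mean at day 3, ordered by the wild-type change from day 3 to day 15, with blue lower and red higher. The wild-type day 15 columns are dark blue for most genes, and the bottom 8 genes, RPL39 to RPL37, are pale or red in wild type and differ between the replicates of the labelled knockout.

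Members with large falls serve both subunits. RPLP0, the scaffold of the large-subunit stalk that recruits translation factors (chromosome 12, 120196686 to 120201235, minus strand, GRCh38), went from day 3 to day 15 from 2589.8 and 2579 through 1765 and 1845 to 551 and 568, a fall of 2.21 (SE 0.11, adjusted p = 6.1e-08). RPS27, a zinc-finger protein of the small subunit, went from 3320.3 and 2611 to 699 and 661, a fall of 2.11 (SE 0.17, adjusted p = 2.8e-06). For both genes every day 15 library was below every day 3 and day 7 library of wild type.

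RPSA, a small-subunit protein also known as the laminin receptor precursor (chromosome 3, 39406689 to 39412542, plus strand), fell from 2041 and 2017 to 507 and 517 FPKM, by 1.98 (SE 0.11, adjusted p = 1.5e-07). RPS3, at the mRNA entry channel and second in mean level, fell by 1.92 (SE 0.13, adjusted p = 8.3e-07), from 4241 and 4598 to 1130.0 and 1203. RPL3 and RPL4, large-subunit proteins near the peptidyl transferase centre and the exit tunnel, fell by 1.91 (SE 0.13, adjusted p = 5.6e-07) and 1.74 (SE 0.14, adjusted p = 2.2e-06). RPL41, the shortest member with 25 residues, fell by 1.56 (SE 0.17, adjusted p = 2.0e-05), from 2331 and 2250.0 to 749 and 807 FPKM.

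In the labelled knockout the members' median change was -0.34 from day 3 to day 7, where it was -0.35 in wild type, and 0.07 from day 7 to day 15. From day 3 to day 15, 25 members were lower and 2 higher (40.3% of all tested genes called, 18.8% lower, 21.5% higher), with a median of -0.27. These intervals share libraries in the same way. From day 3 to day 7, 27 were lower and 0 higher (28.6% called, 11.4% lower, 17.3% higher), and from day 7 to day 15 1 was higher and 2 lower (28.4% called, 13.3% higher, 15.1% lower). The count for day 3 to 7 was 10 without replicate 2 of day 3, 13 without replicate 1 and 15 without replicate 2 of day 7. The count for day 7 to 15 was 23 without replicate 1 of day 15, 0 without replicate 1 and 1 without replicate 2 of day 7. RPLP0 stood at 1675 and 1817 FPKM at day 7 and 1477 and 1257 at day 15 and was lower by 0.36 (SE 0.11, adjusted p = 0.0303), a call that ended without either replicate of day 7 (-0.42 and -0.30) or replicate 2 of day 15 (-0.24). RPL12 again had the largest fall from day 3 to day 15 in this genotype, 0.98 (SE 0.10, adjusted p = 2.8e-05), from 1794 and 1925 to 974 and 904 FPKM.

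At day 15 ribosomal protein mRNAs were higher in the labelled knockout in both subunits. This comparison and the wild-type course share the 2 wild-type libraries of day 15, so the values of the 2 are given side by side and not weighed against each other. Of the 77 members, 54 were higher and 0 lower, beside 35.1% of all tested genes called (18.9% higher, 16.2% lower). The median difference was 0.63 for members and 0.03 for all tested genes. Large-subunit genes were higher in 35 of 46 cases and small-subunit genes in 19 of 31. Both labelled knockout libraries lay above both wild-type libraries for 62 members and below for 2, against 34.1% and 30.6% of all genes. The members' replicates differed more in the labelled knockout, with a pooled SD of 0.304 at day 15 on the log2 scale against 0.0820 in wild type, and 0.230 against 0.0967 at day 3 and 0.176 against 0.0780 at day 7.

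RPL4 (chromosome 15, 66498015 to 66524532, minus strand) had the largest difference. It stood at 865 and 994 FPKM in wild type and 2534 and 2149 in the labelled knockout, which was higher by 1.33 (SE 0.14, adjusted p = 8.0e-05). RPLP0, at 551 and 568 against 1477 and 1257, was higher by 1.28 (SE 0.11, adjusted p = 2.1e-05). RPL10A, a protein of the large-subunit L1 stalk, was higher by 1.10 (SE 0.10, adjusted p = 2.9e-05), at 535 and 507 against 1158 and 1073. In each of these 3 genes the labelled knockout libraries were above those of wild type with a wide gap between the groups.

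RPS27 (699 and 661 against 1749.9 and 1202 FPKM) was higher by 1.09 (SE 0.17, adjusted p = 0.000927) and RPL17, near the exit tunnel (307 and 353 against 676 and 727) by 1.09 (SE 0.16, adjusted p = 0.000522). RPL3 was higher by 1.04 (SE 0.13, adjusted p = 0.000197), at 712 and 776 against 1739 and 1348. These values were again apart by genotype, and in RPS27 and RPL3 the first replicate of the labelled knockout was the higher. RPSA was higher by 0.81 (SE 0.11, adjusted p = 0.000344) and RPS23, the most abundant member, by 0.79 (SE 0.12, adjusted p = 0.000647).

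**Figure D3:**
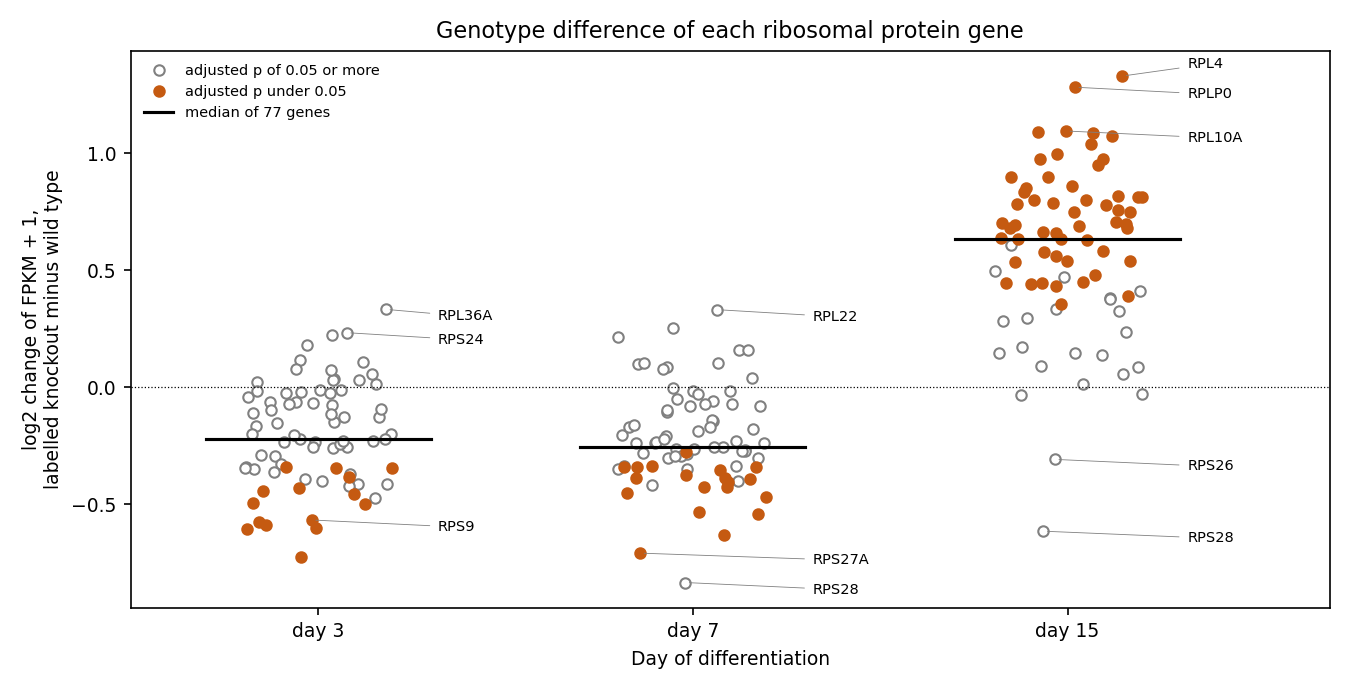
Difference of log2(FPKM + 1) between labelled knockout and wild type for each of the 77 genes at days 3, 7 and 15, with orange points past an adjusted p of 0.05 and bars at the medians of -0.22, -0.25 and 0.63. The points lie mostly below 0 at days 3 and 7 and mostly above 0 at day 15, and RPS28 and RPS26 stay below 0 at day 15.

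At days 3 and 7 the members called were lower in the labelled knockout, in counts near the share of all tested genes called lower. At day 3, 15 members were lower and 0 higher in the labelled knockout (23.6% of all tested genes called, 14.1% lower, 9.51% higher), with a median of -0.22 against -0.01 for all genes. At day 7, 19 were lower and 0 higher (42% called, 19.9% lower, 22.1% higher), with a median of -0.25 against 0.06. Both labelled knockout libraries lay below both of wild type for 42 members at day 3 and 48 at day 7 (35% and 34.8% of all genes), and above for 5 and 7 (30.7% and 39.8%). The counts of calls rest on how libraries are scaled: against the sum of nuclear genes, which shifts the median of all genes to 0.12 at day 3 and 0.22 at day 7 and the share of higher among called genes from 40.3% to 62.3% and from 52.6% to 68.2%, 6 members were lower and 1 higher at day 3 and 1 lower and 5 higher at day 7. They rest on single libraries too. With wild-type replicate 1 or 2 left out the day 3 count was 3 or 4, and with labelled knockout replicate 1 left out it was 3. The day 7 count was 6 or 2 with wild-type replicate 1 or 2 left out, and 6 or 10 with replicate 1 or 2 of the labelled knockout left out.

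RPS9, the third member in mean level, was lower at both days, by 0.57 (SE 0.11, adjusted p = 0.00537) at day 3 (3682 and 3611 against 2419.7 and 2503) and by 0.54 (SE 0.11, adjusted p = 0.0035) at day 7 (2859 and 2931 against 2069.9 and 1912). RPL35 of the large subunit was lower by 0.59 (SE 0.11, adjusted p = 0.00427) at day 3, at 2565 and 2483 against 1625 and 1738 FPKM. The groups did not overlap in any of these comparisons. The calls for RPS9 and RPL35 held under every alternative run. RPS3 was lower by 0.50 (SE 0.13, adjusted p = 0.0223) at day 3 and 0.43 (SE 0.13, adjusted p = 0.0261) at day 7, and against nuclear genes these differences were -0.32 and -0.22 and did not pass. Both calls also ended with either wild-type replicate of the day left out (-0.44 to -0.55 at day 3, -0.42 and -0.43 at day 7) and with labelled knockout replicate 1 left out (-0.30 and -0.35). RPS27A, which encodes a ribosomal protein fused to ubiquitin, was lower at day 7 by 0.71 (SE 0.18, adjusted p = 0.0108), at 443 and 429 against 246 and 288 FPKM. That call ended without wild-type replicate 1 (-0.69) or labelled knockout replicate 1 (-0.60) and against nuclear genes (-0.50).

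The genotype effect was compared between days by testing its difference. That test does not show the sign of the effect at either day. From day 7 to day 15 it was positive and called for 56 members and negative for 0 (31.7% of all tested genes called, 16.6% higher, 15.2% lower), with a median of 0.80 for members and -0.01 for all genes. Among the larger ones were RPL17 at 1.39 (SE 0.22, adjusted p = 0.00126) and RPL10A at 1.37 (SE 0.14, adjusted p = 9.7e-05). From day 3 to day 7, 0 members were called by limma (20.2% of all tested genes called, 11.3% higher, 8.9% lower), with 3 at an unadjusted p under 0.05, and 0 to 1 in the other fits and with single libraries left out.

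Members were then compared with the rest of their family by rescaling each library with the median ratio of its members to their means over all libraries before the fit. From day 3 to day 15 in wild type, 21 members were above the family and 26 below (73.8% of all genes called, 65.4% higher and 8.35% lower). RPL37 was above it by 1.60 (SE 0.23, adjusted p = 8.2e-05) and RPLP0 below it at -1.15 (SE 0.12, adjusted p = 7.8e-06). In the genotype difference at day 15, 11 members were above the family and 9 below (50.8% of all genes called, 6.42% higher and 44.4% lower). The largest above it were RPL4 at 0.76 (SE 0.16, adjusted p = 0.00285), RPLP0 at 0.71 (SE 0.12, adjusted p = 0.000776) and RPL10A at 0.52 (SE 0.12, adjusted p = 0.00378). Below it were RPS28 at -1.19 (SE 0.34, adjusted p = 0.0132), RPS26 at -0.88 (SE 0.16, adjusted p = 0.00104), RPLP1 at -0.60 (SE 0.20, adjusted p = 0.0248), RPS15 at -0.56 (SE 0.18, adjusted p = 0.0225) and RPL19 at -0.49 (SE 0.11, adjusted p = 0.00285). At day 3, 2 were above and 2 below (18.4% of all genes called, 11.7% higher and 6.69% lower), with RPL5 and RPS24 among those above. At day 7, 4 were above, RPS23, RPL22 and RPL11 among them, and RPS27A was below (41.2% of all genes called, 28.3% higher and 12.8% lower). Over the 3 genotype comparisons this made 29 calls, where single wild-type libraries left out gave 10 or 9 for replicates 1 and 2 of day 15, 16 for either of day 7 and 19 for either of day 3. With labelled knockout replicate 2 of day 15 left out there were 63.

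A set of 10 members did not follow the others over the 12 libraries. As a description, each member's log2 level was correlated with the mean of the other 76, and the median r was 0.905, with 40 members above 0.9. The lowest were RPL37 (r = -0.46), RPL38 (-0.30), RPS26 (-0.21), RPS28 (-0.16), RPL22 (0.02), RPL36 (0.10), RPL37A (0.19), RPL39 (0.42), RPLP1 (0.54) and RPLP2 (0.63). These 10 were also the 10 members that did not pass the test between days 3 and 15 in wild type, a measure drawn from 4 of the same libraries. The match holds in the reported fit: in a fit of those 4 libraries alone 69 members were lower and 4 higher, and only RPL22, RPL36, RPL37A and RPL39 did not pass. All genes of a library share its depth and preparation.

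RPL37 (chromosome 5, 40825262 to 40835335, minus strand), a zinc-binding protein of the large subunit, stood at 358 and 289 FPKM in wild type and 219.7 and 289.8 in the libraries labelled knockout at day 3, 242 and 274 against 278 and 299.5 at day 7, and 457 and 478 against 340.4 and 693 at day 15. Its wild-type libraries at day 15 were above all others of that genotype. It rose in wild type from day 7 to day 15 by 0.86 (SE 0.27, adjusted p = 0.0199), the 1 member called so, and in the labelled knockout from day 3 to day 15 by 0.94 (SE 0.27, adjusted p = 0.0167). The first call ended with any 1 of its 4 libraries left out (0.77 to 0.95). The second ended without replicate 2 of day 15 (0.43) or replicate 1 of day 3 (0.74), and the labelled knockout replicates of day 15 span the wild-type values. RPL38 (chromosome 17, 74203582 to 74210655, plus strand), linked in mice to the translation of Hox mRNAs, stood at 1284 and 1034 FPKM in wild type and 918 and 1400.3 in the libraries labelled knockout at day 3, 1192 and 1212 against 771 and 1287 at day 7, and 1528 and 1685 against 1146 and 2141 at day 15. Its replicates in the labelled knockout were further apart at each day than those of wild type, and the groups overlapped at days 3, 7 and 15.

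RPS26 (chromosome 12, 56041351 to 56044697, plus strand), at the mRNA exit channel, stood at 287 and 285 FPKM in wild type and 190.2 and 259.5 in the libraries labelled knockout at day 3, 306 and 327 against 229 and 181 at day 7, and 331 and 340.4 against 229 and 320.2 at day 15. Its wild-type values were above those of the labelled knockout at every day, and the difference passed at day 7, lower by 0.63 (SE 0.18, adjusted p = 0.0179), a call that ended without either wild-type replicate (-0.68 and -0.58), without labelled knockout replicate 2 (-0.46) and against nuclear genes (-0.43). RPS28 (chromosome 19, 8321158 to 8323340, plus strand), beside RPS26 in that channel, stood at 133 and 164 FPKM in wild type and 80.2 and 197 in the libraries labelled knockout at day 3, 173 and 212 against 89.6 and 128 at day 7, and 196 and 215 against 94.6 and 188 at day 15. In the labelled knockout its second replicate was the higher at every day. The genotypes overlapped at day 3, and at days 7 and 15 the wild-type libraries were above. Its wild-type change from day 3 to day 15 was 0.47 (SE 0.39, adjusted p = 0.321) and did not pass, though it did in a fit of those 2 groups alone.

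RPL22 (chromosome 1, 6185020 to 6209389, minus strand), a protein at the surface of the large subunit without which mice are viable, stood at 515 and 416 FPKM in wild type and 484 and 522 in the libraries labelled knockout at day 3, 329 and 344 against 408 and 440.5 at day 7, and 427 and 489.7 against 476 and 778 at day 15. It was lower at day 7 than at day 3 in both genotypes, and the highest value was replicate 2 of the labelled knockout at day 15. Its genotype difference at day 15 was 0.41 (SE 0.20, adjusted p = 0.125), and it passed without replicate 1 of the labelled knockout (0.77). RPLP1 and RPLP2, the paired acidic proteins of the stalk, sit on RPLP0. RPLP1 stood at 537 and 587 FPKM in wild type and 439 and 690.1 in the labelled knockout at day 15, a difference of -0.03 (SE 0.24, adjusted p = 0.936), and RPLP2 at 362 and 377 against 342 and 489, 0.15 (SE 0.16, adjusted p = 0.512). The groups overlapped in both, and RPLP2 passed without replicate 1 of the labelled knockout (0.40). The other three, RPL36, RPL37A and RPL39, had genotype differences between 0.09 and 0.15 at day 15 that did not pass.

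**Figure D4:**
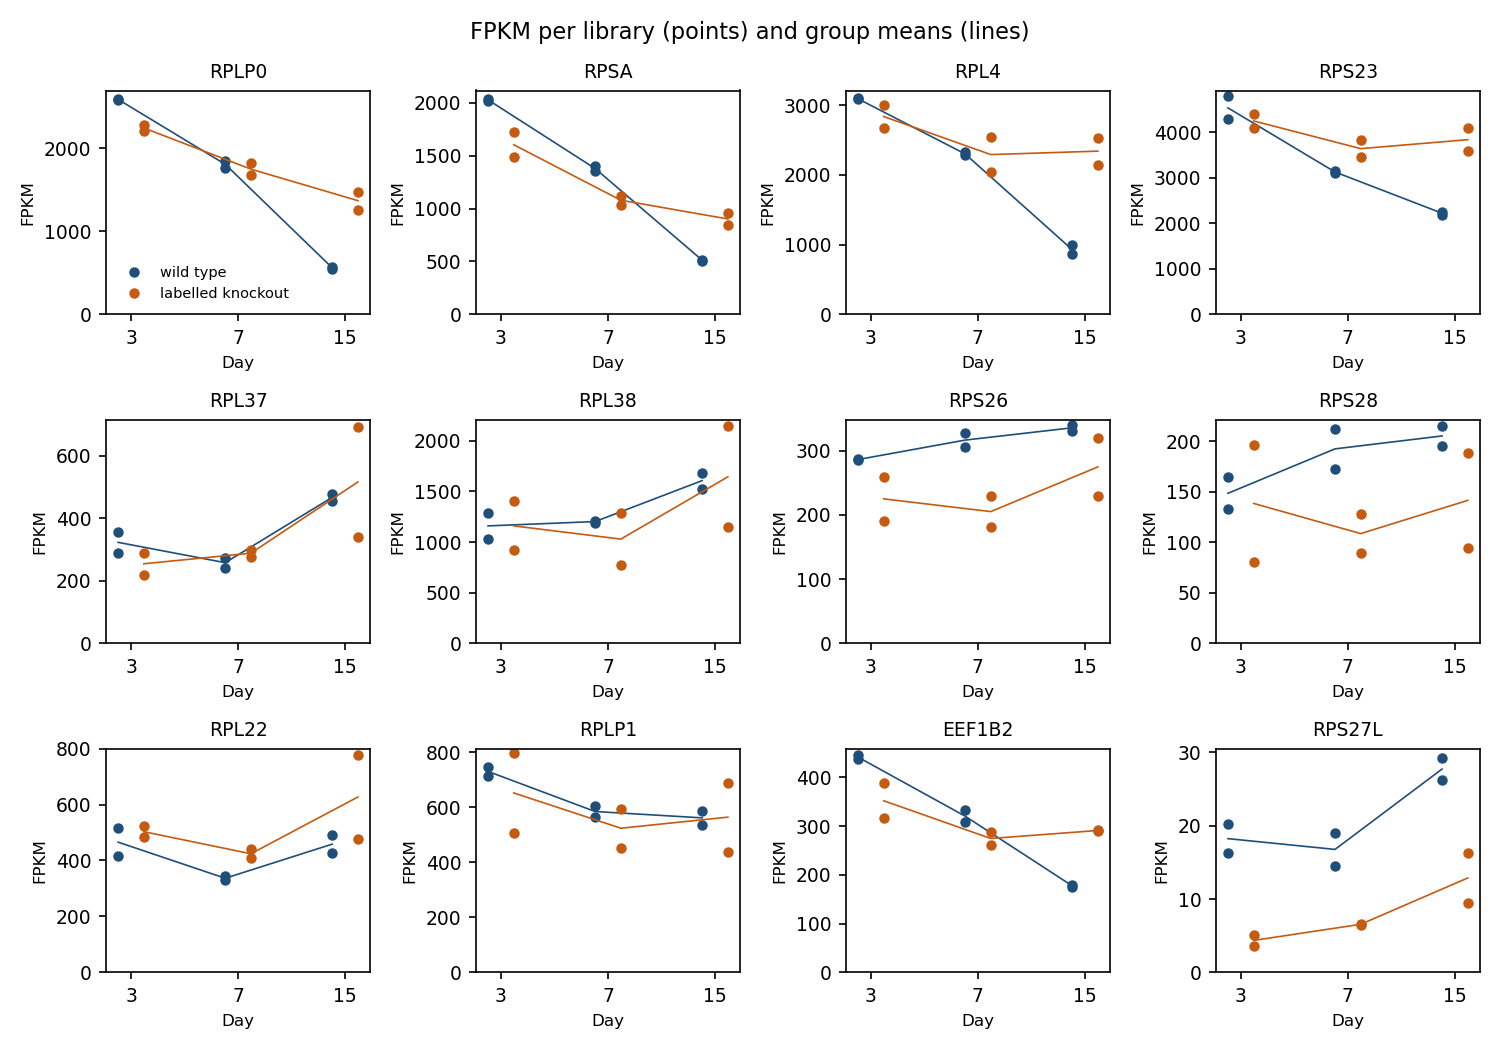
FPKM by day in each library (points) with means of 2 libraries (lines) for 4 members that fell in wild type (top row), 6 that did not follow the family, the translation factor gene EEF1B2 and the paralog RPS27L. The top row falls in wild type and stays higher in the labelled knockout at day 15, while RPL37, RPL38, RPS26 and RPS28 were not called lower at day 15 than at day 3 in wild type.

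The 10 members lowest by this measure encode short proteins, of 51 to 128 residues, where the other 67 have a median of 159 residues. Taking 10 of them was a choice, with no gap at its edge: the next member, RPL6 (r = 0.63), encodes 288 residues. In all, 22 members encode at most 128 residues. Short and long members were therefore set side by side at 130 residues, a boundary chosen after these values were seen, with no test. Of the 55 longer members, 55 fell between days 3 and 15 in wild type, and 44 were higher in the labelled knockout at day 15. Of the 22 shorter members, 12 fell and 10 were higher. The medians were -1.27 and -0.57 for the wild-type change and 0.68 and 0.37 for the genotype difference, longer before shorter.

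Across the 77 genes, Spearman's rho with protein length was -0.50 for the wild-type change and 0.49 for the genotype difference at day 15. Genes are not independent replicates, and the points share libraries. Level also varied with these changes, with Spearman's rho of -0.48 and 0.34. Within groups, the log2 ratio of replicate 2 to replicate 1 had r with length of -0.36, -0.21 and -0.35 in the labelled knockout and 0.27, -0.29 and 0.14 in wild type at days 3, 7 and 15. All 10 members named above were higher in replicate 2 of the labelled knockout at days 3 and 15, and 9 of them at day 7. Of the 77 members, 69, 43 and 39 were so at days 3, 7 and 15. In wild type 2, 10 and 8 of the 10 were higher in replicate 2 at days 3, 7 and 15, beside 23, 64 and 60 of the 77. The part of this replicate difference in the results was not tested.

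**Figure D5:**
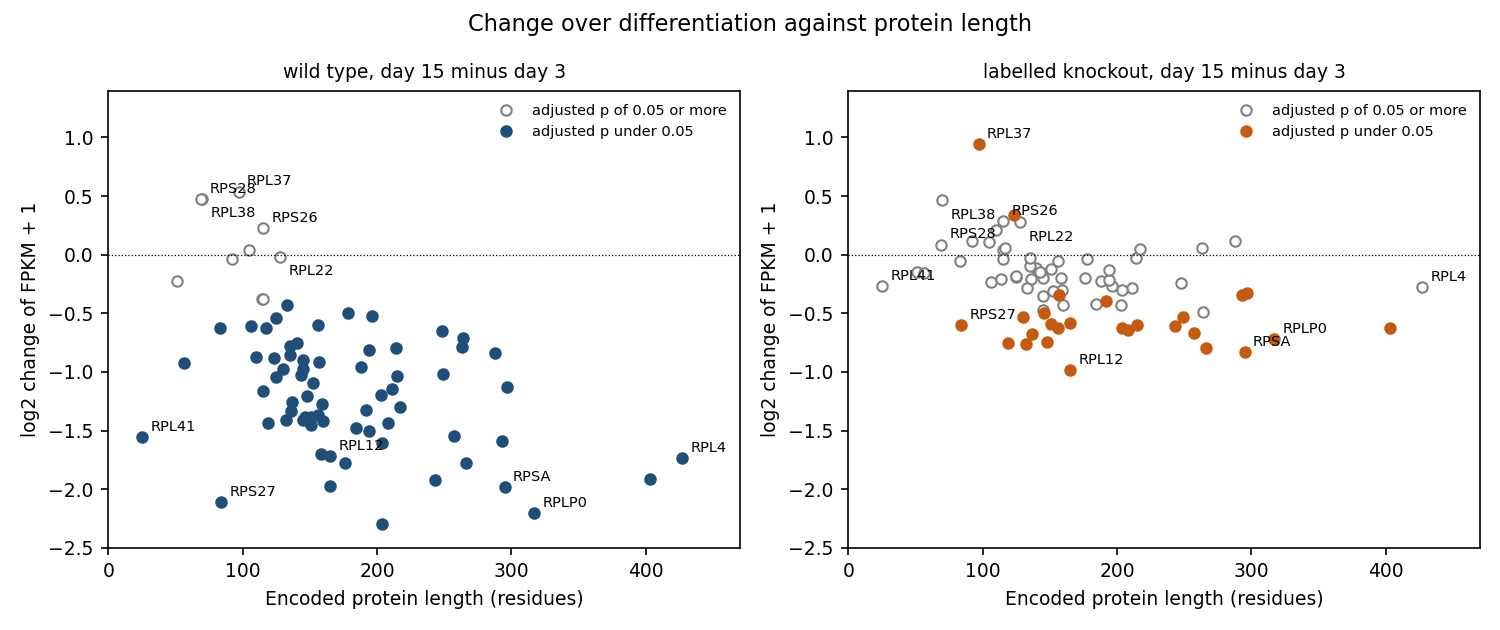
Log2 change of FPKM + 1 from day 3 to day 15 against the number of encoded residues for the 77 genes in wild type (left) and the labelled knockout (right), with filled points past an adjusted p of 0.05. In wild type the 10 open points all lie at or under 128 residues, while RPL41 and RPS27 are short and fell by 1.56 and 2.11.

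Short length alone did not mark them. RPL41 and RPS27, of 25 and 84 residues, fell by more than the median member, and RPL30, of 115 residues, was higher in the labelled knockout at day 15 by 0.95 (SE 0.10, adjusted p = 8.7e-05). RPL35, of 123 residues, fell in wild type by 0.88 (SE 0.11, adjusted p = 6.4e-05) and rose in the labelled knockout from day 3 to day 15 by 0.33 (SE 0.11, adjusted p = 0.0351), at 1625 and 1738 and then 2239 and 2005 FPKM. That rise ended without either replicate of day 3 (0.29 and 0.38) or replicate 1 of day 15 (0.25).

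By role, RPL5 and RPL11, which bind the 5S rRNA and, when free, the p53 regulator MDM2, were both higher at day 15. RPL5 stood at 680.5 and 628 against 1172 and 1411 FPKM, higher by 0.98 (SE 0.12, adjusted p = 0.000176), and RPL11 at 789 and 796 against 1002 and 1173, higher by 0.45 (SE 0.11, adjusted p = 0.00802). The RPL11 call ended in a fit of the day 15 groups alone. At days 3 and 7 their differences lay between -0.01 and 0.18 and did not pass. Of 20 members mutated in Diamond-Blackfan anaemia, 15 were higher at day 15 (median 0.62), 5 lower at day 7 and 3 lower at day 3, beside 54, 19 and 15 of the 77 members. Of all tested genes, 18.9% were higher at day 15, 19.9% lower at day 7 and 14.1% lower at day 3, so the counts at days 3 and 7 are near that background. RPS19, the most often mutated of them, was higher at day 15 by 0.44 (SE 0.15, adjusted p = 0.0433), at 747 and 886 against 1003 and 1208, a call lost without either wild-type replicate (0.31 and 0.56) or labelled knockout replicate 2 (0.30).

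RPL10, an X-linked gene for a protein that joins the large subunit late, was lower at day 7 by 0.47 (SE 0.12, adjusted p = 0.00848) and higher at day 15 by 0.75 (SE 0.12, adjusted p = 0.000783). It stood at 1055 and 1063 against 816 and 719 FPKM at day 7 and 532 and 549 against 969.6 and 851 at day 15. With replicate 2 of either genotype left out the day 7 call was lost (-0.46 for wild type, -0.38 for the labelled knockout), as it was against nuclear genes (-0.26). Of the 4 X-linked members (RPS4X, RPL10, RPL36A and RPL39), 3 were higher at day 15 and 1 lower at day 7. In the whole family these counts were 54 and 19 of 77, and among all tested genes 18.9% and 19.9%. The X-linked counts are near the family's rate and do not set these members apart. RPS6, the substrate of the S6 kinases, did not pass at any day, with 0.38 (SE 0.15, adjusted p = 0.0662) at day 15, and passed there without labelled knockout replicate 1 (0.50).

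In 28 of the 77 genes the annotation (GENCODE 29) places snoRNAs inside the gene, 60 in all. The median wild-type change from day 3 to day 15 was -1.40 for these and -0.93 for the other 49, and the genotype difference at day 15 was 0.75 and 0.56. The 45 members with a C and T run of at least 8 bases covering the annotated start had a wild-type median of -1.03. The 17 matched members without one had -0.93, and at day 15 the medians were 0.56 and 0.66. No group test was made of these classes.

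Several paralogs and fusion genes were lower in the labelled knockout at day 15, where no member was. Of 12 listed, 9 were measured, and in the genotype comparison at day 15, 1 was higher and 3 were lower (median -0.30). All tested genes were 18.9% higher and 16.2% lower in that comparison. RPS27L, a paralog of RPS27 that p53 induces, stood at 16.2 and 20.2 FPKM in wild type and 5.05 and 3.66 in the libraries labelled knockout at day 3, 14.5 and 19.1 against 6.48 and 6.63 at day 7, and 29.3 and 26.2 against 9.42 and 16.3 at day 15. The labelled knockout was below wild type at every day, by 1.85 (SE 0.24, adjusted p = 0.000534) at day 3, 1.22 (SE 0.24, adjusted p = 0.00259) at day 7 and 1.09 (SE 0.24, adjusted p = 0.00588) at day 15, where RPS27 itself was higher. RPL36AL stood at 88.7 and 65.6 FPKM in wild type and 61.0 and 58.4 in the libraries labelled knockout at day 3, 87.2 and 87.5 against 53.8 and 54.6 at day 7, and 189 and 195 against 66.7 and 91.8 at day 15. It rose in wild type from day 3 to day 15 by 1.32 (SE 0.16, adjusted p = 5.3e-05) and was lower in the labelled knockout at day 15 by 1.28 (SE 0.16, adjusted p = 0.00026), while RPL36A, its X-linked relative, was higher by 0.71 (SE 0.13, adjusted p = 0.00257). Reads of near-identical copies may be split between them, and how they were counted is not given in the sources used here.

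RPL26L1 was lower at each day, by 0.73, 0.65 and 0.85, and rose in wild type by 0.88 (SE 0.22, adjusted p = 0.00532). At day 3 that call was lost when any single day 3 library was dropped (-0.66 to -0.80) and against nuclear genes (-0.56). At day 7 it was lost with wild-type replicate 1 or 2 (-0.75 or -0.56) or labelled knockout replicate 1 (-0.40) dropped and against nuclear genes (-0.46). At day 15 it was lost with wild-type replicate 2 (-0.80) or labelled knockout replicate 1 (-0.52) dropped. FAU, which encodes a small-subunit protein fused to a ubiquitin-like one, rose in wild type from day 3 to day 15 by 0.58 (SE 0.21, adjusted p = 0.036), which did not pass without replicate 2 of day 3 (0.45) or either replicate of day 15 (0.70 and 0.47). RACK1, a scaffold protein on the small subunit, did follow the members: it fell in wild type by 1.66 (SE 0.12, adjusted p = 1.3e-06) and was higher in the labelled knockout at day 15 by 0.78 (SE 0.12, adjusted p = 0.000913), at 721 and 824 against 1454 and 1205 FPKM. RPL39L, RPL22L1 and RPL7L1 did not pass between the genotypes.

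Other mRNAs known to carry a TOP tract were mostly called in the members' directions over the wild-type course and at day 15, but not at day 3. Of 19, 16 were lower and 1 higher from day 3 to day 15 in wild type (median -0.93). In the labelled knockout at day 15, 14 were higher and 1 lower (median 0.69). Of all tested genes, 29.9% were lower and 29.2% higher over the wild-type course. At day 15, 18.9% were higher and 16.2% lower in the labelled knockout. EIF4B, a helper of the mRNA-unwinding helicase, stood at 93.5 and 93.6 FPKM in wild type and 453 and 329 in the labelled knockout at day 15, higher by 2.03 (SE 0.14, adjusted p = 7.0e-06). The elongation factor gene EEF1A1, at 2194 and 2166 against 7087 and 6155, was higher by 1.60 (SE 0.12, adjusted p = 1.3e-05), and EEF1G by 1.41 (SE 0.10, adjusted p = 9.4e-06). The groups of these 3 genes did not overlap at day 15. Among the 19, 3 were higher and 0 lower at day 3 (median -0.15), where the 15 members called were lower. At day 7, 2 were higher and 3 lower. All tested genes were 9.51% higher and 14.1% lower at day 3, and 22.1% higher and 19.9% lower at day 7. VIM, the intermediate filament vimentin, went the other way: it rose in wild type by 1.72 (SE 0.09, adjusted p = 1.2e-07) and was lower at day 15 by 0.49 (SE 0.09, adjusted p = 0.00243), a call that ended in a fit of the day 15 groups alone.

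Of 12 measured snoRNA host genes, 10 were lower and 1 higher over the wild-type course, and 6 were higher and 2 lower at day 15 (median 0.54). For all tested genes these shares were 29.9% lower and 29.2% higher, then 18.9% higher and 16.2% lower. GAS5, a host RNA with a TOP tract, fell by 1.76 (SE 0.10, adjusted p = 1.5e-07) and was higher in the labelled knockout at day 15 by 0.99 (SE 0.10, adjusted p = 5.2e-05). Of 39 genes for ribosome assembly, 27 were higher and 0 lower in the labelled knockout at day 7 (median 0.57), where 0 members were higher. All tested genes were 22.1% higher and 19.9% lower at that day. At day 15, 11 of the 39 were higher and 7 lower (median 0.22). NOP56, a core snoRNP protein, was higher at day 7 by 1.62 (SE 0.11, adjusted p = 4.3e-06), and FBL, the rRNA methyltransferase fibrillarin, at day 15 by 1.49 (SE 0.12, adjusted p = 1.5e-05). At day 3, 4 of the 39 were higher and 5 lower, near the shares of all tested genes (9.51% higher, 14.1% lower). In wild type 35 of them fell and 0 rose from day 3 to day 7 (median -0.90), beside 22.6% and 21.1% of all tested genes. From day 7 to day 15, 19 rose and 5 fell (median 0.49), beside 25.5% and 26.8%. The day 7 genotype comparison shares the wild-type day 7 libraries with both of these intervals. Over the whole course 25 fell and 3 rose.

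The remaining lists split. Of all tested genes, 18.9% were higher and 16.2% lower at day 15. These shares were 22.1% then 19.9% at day 7 and 9.51% then 14.1% at day 3. Several of the counts below are near these shares, but the lower counts of the p53 list at days 3 and 7 are above them. Of 20 initiation factors, 7 were higher and 4 lower at day 15 (median 0.12), 4 higher with 7 lower at day 7, and 1 higher with 4 lower at day 3. EIF5B, the subunit-joining factor, was lower at day 15 by 1.55 (SE 0.16, adjusted p = 8.3e-05). Of 17 genes of mTORC1 signalling and the LARP family, 2 were higher and 5 lower at day 15 (median -0.10), 5 higher with 5 lower at day 7, and 1 higher with 5 lower at day 3. LARP1 was higher at day 7 by 0.45 (SE 0.15, adjusted p = 0.0329), a call that ended with either wild-type replicate (0.45 and 0.46) or labelled knockout replicate 1 (0.36) left out. Its differences at days 3 and 15 were 0.45 and 0.27 and did not pass. Of 10 chaperones of ribosomal proteins, 1 was higher and 2 lower at day 15 (median 0.10), 2 higher with 1 lower at day 7, and 1 lower at day 3. Of 10 measured genes of the p53 checkpoint on ribosome assembly, 2 were higher and 3 lower at day 15 (median -0.29). At day 7, 2 were higher and 6 lower (median -0.86), and at day 3, 1 was higher and 7 lower (median -1.43). Of 79 ribosomal protein pseudogenes that passed the filter, 18 were higher and 5 lower at day 15 (median 0.33), and reads of the parent genes could reach them, since their counting is not known.

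The genes most like the mean of the members over the 12 libraries, among those with a mean of at least 5 FPKM that are no members, were EEF1B2 (r = 0.99), EEF1A1P5 (0.97), RACK1 (0.97), APEX1 (0.97), RPS2P5 (0.97), CRTAP (0.97), PRCP (0.97), SPCS3 (0.97), RPLP0P6 (0.96) and CCNG1 (0.95). Of these, 3 are pseudogenes of TOP mRNAs by name. EEF1B2, whose start is shown above, encodes the exchange factor of elongation factor 1. It stood at 437 and 446 FPKM in wild type and 316 and 388 in the libraries labelled knockout at day 3, 308 and 333 against 262 and 287 at day 7, and 180.2 and 175 against 290.2 and 292 at day 15. Like the sum of the members, it was lower at each later day in wild type and was higher in the labelled knockout at day 15, by 0.71 (SE 0.11, adjusted p = 0.000853).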

How the data were processed

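RNA of 12 libraries was extracted with Trizol and sequenced on a HiSeq X10, per the labels' protocols. The deposited FPKM values, 1 file per library, were computed by the authors; the unit was inferred from the values. BWA and hg38 (GRCh38) are named per the submitters' processing notes. Not given in the sources used here are the quantifier, its annotation, the use of strand and the handling of multiply mapped reads. Depth is unknown, so no counting intervals are given.

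Values were tested as log2(FPKM + 1) with limma 3.58.1 (trend option, R 4.3.3) on genes that reached 1 FPKM in 2 or more libraries: 6 group means, 6 residual degrees of freedom, 11 contrasts, two-sided p, Benjamini-Hochberg adjustment across every tested gene. The relative fit first divided each library by the median ratio of its members, and its filter kept 16435 genes. Fold changes on this scale understate low genes. The members, the gene lists and the naming rule were all chosen with earlier results of these data known. That rule took key members, the extremes and calls of each genotype contrast, the highest and lowest members, all measured paralogs, up to 4 called genes per list and the 10 most similar genes. RPL12, LARP1, the boundary of 130 residues and the members named for the day courses were chosen after their values were seen. Of the listed symbols, 22 had become dates and 18 lines shared a symbol with another; these stayed in the fit as genes of their own, and none is a member. Coordinates and protein lengths are from GENCODE 29 (GRCh38), start sequences from RefSeq (GRCh38.p14). A few genes are not reported by name here. The code was tested on simulated data. Alternatives were other scalings, filters (none, 5 FPKM), a pseudocount of 0.1, no trend, the compared groups alone, a replicate block and each library left out.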

Additional observations from a re-analysis of the deposited data

Results flagged for a closer look

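The genotype effect (labelled knockout minus wild type, on the log2 scale of FPKM + 1) differed between day 15 and day 7 by an interaction term in limma, adjusted over all genes, for 56 members, all positive. Among the members and relatives named whatever they showed, it was largest for RPS27, at 1.35 (adjusted p = 0.00252), and RPLP0, at 1.33 (adjusted p = 0.000194). RPL3 (1.28), RPL10 (1.22) and RPSA (1.17) followed. RACK1 (1.09) and RPL41 (1.03) moved the same way. RPL5 stood at 0.98, RPS4X at 0.78 and RPS19 at 0.71. The RPS4X call ended against nuclear genes (0.58). For RPS19 the call ended without wild-type replicate 1 of day 15 (0.59) or replicate 2 of day 7 (0.60) and without labelled knockout replicate 2 of day 15 (0.58) or replicate 1 of day 7 (0.64).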

How the results depend on the processing

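The count of members called at day 15 between the genotypes (43 to 61 with 1 library left out), those of the wild-type course to day 15 (50 to 52 from day 7, 61 to 63 from day 3), that of the difference between days 7 and 15 (43 to 58) and the day 15 ratio of sums (1.51 to 1.58) stayed within 1.5 times or the replicate spread under every alternative run. Other counts moved. Scaled to nuclear genes, the counts were 7 at day 3, 6 at day 7 and 15 for the labelled knockout from day 3 to 7, and scaled to the sum without mitochondrial genes and members 7 and 5 at days 3 and 7. Median-ratio scaling gave 29 at day 7, 1 for the difference between days 3 and 7 and a day 7 ratio of sums of 0.823. As a share of nuclear genes the ratio was 0.955 at day 3 and turned to 1.00 at day 7. Without the trend, the counts were 9 at day 7, 23 for wild type and 17 for the labelled knockout from day 3 to 7, 0 for the labelled knockout from day 7 to 15, and 15 relative to the family. In the compared groups alone they were 57 for wild type from day 3 to 7 and 13, 0 and 11 for the labelled knockout from day 3 to 7, day 7 to 15 and day 3 to 15. The cause of these moves was not tested.

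With 1 library left out, counts ran from 3 to 14 at day 3, 2 to 10 at day 7, 14 to 23 for wild type and 10 to 23 for the labelled knockout from day 3 to 7, 0 to 23 and 18 to 34 for the labelled knockout to day 15 from days 7 and 3, 0 to 1 for the difference between days 3 and 7, and 9 to 63 relative to the family. The ratio of sums ran from 0.795 to 0.894 at day 3 and 0.846 to 0.888 at day 7. A lone remaining library was assumed to vary like the other groups.

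Replicates share numbers, but same-numbered libraries of the 2 genotypes correlated at 0.037, 0.024 and -0.121 in their deviations at days 3, 7 and 15, and those of the labelled knockout at 0.155 between days 3 and 7, 0.103 between days 3 and 15 and 0.206 between days 7 and 15. The labels do not say that a number pairs libraries and a group holds 2, so they were not treated as paired. With a replicate block the genotype counts were 16, 20 and 58 at days 3, 7 and 15, and those of the labelled knockout 32 from day 3 to 7, 29 from day 3 to 15 and 5 from day 7 to 15, the 1 count that moved by over 1.5 times. Of 899 results for single named genes, 420 were called. Of their 12112 alternatives 0 reversed, 651 no longer passed the threshold and 248 newly passed it.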
